A study of Mus musculus with 6 samples.

Results

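The genes described here encode the subunits of the proteasome, its activators, its inhibitor and its assembly chaperones. They were taken as every row of the 6 libraries whose symbol begins with Psm, a letter from a to g and a digit, without the immunoproteasome genes Psmb8, Psmb9 and Psmb10, which gave 47 members among 23282 rows. The rule used symbols and no measured value, but it was set with earlier results of these data known. RNA was measured in 3 kidney libraries of BALB/c mice and 3 of C57BL/6 (B6) mice, inbred laboratory strains. Each library was taken as 1 mouse, since the labels number replicates without naming animals. The labels give strain and tissue for each library, with no genotype change, treatment, sex or age. The series concerns strain differences of kidney innate lymphoid cells, and these libraries ask what differs in RNA of the entire kidney.

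The proteasome is the large protease of cytosol and nucleus that degrades proteins tagged with ubiquitin. Its barrel-shaped core is built of outer alpha rings, which gate the entry, and inner beta rings, which carry the cutting sites. A regulatory particle at the end of the core recognises ubiquitin, unfolds the substrate with a ring of ATPases and feeds it into the barrel, and other activators can take its place. Cells raise the transcription of many subunits together when proteasome activity is short, through the transcription factor encoded by Nfe2l1. Kidney tubule cells use the proteasome beside lysosomes for protein turnover.

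The deposited gene values of each library amounted to between 8310798 and 10416332 reads, recovered as described below. The libraries were made with a kit that reads the 3′ ends of transcripts. Levels are therefore in CPM, reads per 1e6 reads, and were not divided by transcript length. A log2 fold is the mean log2(CPM + 1) of BALB/c minus that of B6, the error written after it is its standard error (SE), and a gene was called at a limma adjusted p under 0.05 (two-sided, Benjamini-Hochberg over 13317 genes). The mm10 genome used for all libraries is of B6 origin, and a loss of BALB/c reads through mismatches was not tested. Among kidney markers Slc12a3 of the distal tubule was called lower, with 173, 175 and 183 CPM in BALB/c and 240.4, 288 and 241 CPM in B6. Slc34a1 of the proximal tubule, not called, was at 1589, 1543 and 1867 CPM in BALB/c and 1918, 2047 and 1943 CPM in B6. Kidney markers differed in sign. Slc12a1 and Aqp2 had log2 folds of 0.13 and 0.05, Umod and Lrp2 had -0.25 and -0.12, and none of these was called. Of 4 leukocyte markers tested out of 7, 2 were called higher (Csf1r and Lyz2), and the list summed to 129 to 154 CPM in BALB/c and 69.5 to 93.0 CPM in B6. Most of that sum was Csf1r, at 103, 119 and 133 CPM in BALB/c and 61.1, 73.9 and 54.0 CPM in B6. The Lyz2 groups overlapped, and its call was lost without BALB/c replicate 1 or 2 or B6 replicate 2 or 3 (limma adjusted p up to 0.200). Other leukocyte markers differed in sign, with Adgre1 at -0.74 (log2 fold, limma adjusted p = 0.295), Ptprc at 0.40 (0.45), and Itgam, not tested, at 0.291, 0.118 and 0.201 CPM in BALB/c and 0.44, 0.705 and 0.897 CPM in B6. Cd79a of B cells was at 0 in 2 libraries of BALB/c and 1 of B6, and Cd3e of T cells was at 0 in 1 library of BALB/c. The 5 red cell genes summed to 2888 to 5280.2 CPM in BALB/c and 4553 to 5575 CPM in B6, and 1 of them, Hbb-bs, was called lower, with overlapping groups and a call lost without B6 replicate 1 (limma adjusted p = 0.0513). The 4 endothelial markers, 0 called, summed to 156 to 162 CPM in BALB/c and 175 to 193 CPM in B6. Of 4 fibroblast and smooth muscle markers 1, Acta2, was called lower, with sums of 209 to 242 CPM in BALB/c and 217 to 304 CPM in B6. The adrenal enzyme genes Cyp11b1 and Cyp11b2 were at 0 in all libraries, and the 4 adrenal markers summed to 1.84 to 6.25 CPM in BALB/c and 2.52 to 3.92 CPM in B6. The part of these cell types in the results below was not tested, and in whole tissue fewer cells of a type and less RNA per cell cannot be told apart.

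Most proteasome genes had folds near 0 between the strains, and 6 of the 7 called were lower in BALB/c. Of the 47 members, 45 were high enough to be tested, and 7 were called, 1 higher (Psma4) and 6 lower (Psmc4, Psmd11, Psmb3, Psmd5, Psme4 and Psmd8) in BALB/c. The call held for 15.6% of the tested members, where 9.09% of all genes tested were called. Called lower were 13.3% of the tested members, against 4.93% of all genes, and called higher were 2.22%, against 4.17%. Among the 8536 other tested genes whose mean log2 value was at least that of the lowest tested member, 11.0% were called, 5.04% higher and 6.00% lower. A single gene is 2.22% of this list, and no test of the list against other genes was made. An unadjusted p under 0.05 was reached by 10 of the 45, where 21.3% of all genes reached it. Leaving out B6 replicate 1, BALB/c replicate 1 or BALB/c replicate 2 left 4 members called in each case (Psmb3, Psmc4, Psmd11 and Psme4), and a variance prior that ignores expression level left 2 (Psmc4 and Psmd11). The called members lie on 4 chromosomes, 3 of them among the 10 members on chromosome 11 (Psme4, Psmd11 and Psmb3) and 2 among the 4 on chromosome 7 (Psmc4 and Psmd8).

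The list as a whole was centred near 0. The median log2 fold of the 45 tested members was -0.03, beside 0.002 over all genes tested, with 18 members above 0 and 27 below. In 34 of the 45 the fold was smaller than 0.25 in either direction, and the largest departure was that of Psmc4. Together the 47 members took 0.539% ± 0.0123 of all CPM in BALB/c libraries and 0.536% ± 0.00479 in B6 libraries (SD, n = 3 each). Within strains the median standard deviation of the members was 0.12 on the log2 scale, against 0.18 for the other genes at or above their lowest level. That floor was the level of Psmc3ip, while the median tested member stood at percentile 83.7 of mean CPM among genes tested. Genes of matched level were not compared. The strains did not overlap in 17 of the 45 tested members (37.8%), where 25.4% of all genes tested did not overlap. In 13 of these BALB/c lay below B6 (28.9%, background 12.9%) and in 4 above (8.89%, background 12.5%).

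**Figure D1:**
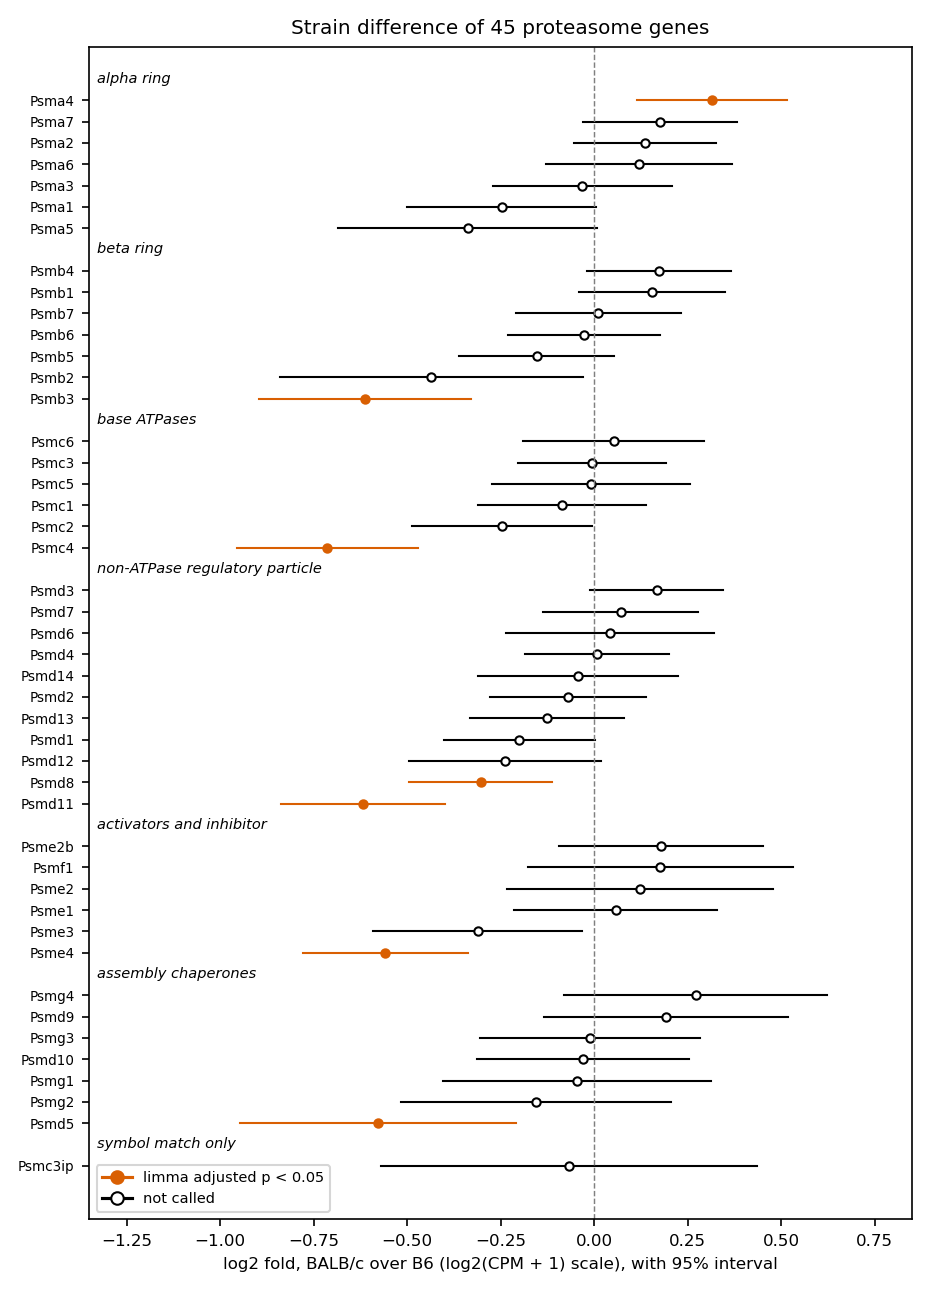
Log2 fold of BALB/c over B6 (x axis, log2(CPM + 1) scale) of the 45 tested members in rows grouped by role, with 95% intervals from limma. Filled orange points mark the 7 called members, and the single one right of 0 is Psma4, while Psmc4 at -0.71 lies farthest left.

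Promoter sequences are shown for Psmc4, Psmd11, Psmb3 and Psme4, the called members that kept their call without any 1 library, and for Psma4, the sole one called higher, to show which motifs of known proteasome gene regulation stand near their starts. They are the 250 bases before the RefSeq start on GRCm38.p6, a start that can differ from that of the gene span given below from GENCODE, and capitals mark the matches. The windows are chr7:28050093-28050342 on the minus strand for Psmc4, chr11:80428365-80428614 on the plus strand for Psmd11, chr11:97703184-97703433 on the plus strand for Psmb3, chr11:30771525-30771774 on the plus strand for Psme4 and chr9:54950609-54950858 on the plus strand for Psma4.
Psmc4: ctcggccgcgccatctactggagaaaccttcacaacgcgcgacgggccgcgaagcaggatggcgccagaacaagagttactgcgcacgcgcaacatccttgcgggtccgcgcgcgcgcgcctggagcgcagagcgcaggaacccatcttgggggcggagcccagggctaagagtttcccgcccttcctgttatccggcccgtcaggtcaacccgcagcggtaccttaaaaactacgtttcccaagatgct
Psmd11: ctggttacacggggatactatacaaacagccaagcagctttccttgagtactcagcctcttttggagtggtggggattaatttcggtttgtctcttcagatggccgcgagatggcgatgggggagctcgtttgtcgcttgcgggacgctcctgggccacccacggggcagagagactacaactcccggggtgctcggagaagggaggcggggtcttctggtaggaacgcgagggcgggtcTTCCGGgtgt
Psmb3: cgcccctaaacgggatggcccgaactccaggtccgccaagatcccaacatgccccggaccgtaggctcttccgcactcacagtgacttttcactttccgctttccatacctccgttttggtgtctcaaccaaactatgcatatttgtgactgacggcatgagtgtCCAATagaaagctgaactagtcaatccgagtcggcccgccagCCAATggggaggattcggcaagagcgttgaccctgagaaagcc
Psme4: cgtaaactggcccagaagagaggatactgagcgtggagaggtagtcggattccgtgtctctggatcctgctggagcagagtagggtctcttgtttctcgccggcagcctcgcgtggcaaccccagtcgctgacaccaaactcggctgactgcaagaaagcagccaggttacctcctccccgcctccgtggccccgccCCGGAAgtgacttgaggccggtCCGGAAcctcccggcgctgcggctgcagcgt
Psma4: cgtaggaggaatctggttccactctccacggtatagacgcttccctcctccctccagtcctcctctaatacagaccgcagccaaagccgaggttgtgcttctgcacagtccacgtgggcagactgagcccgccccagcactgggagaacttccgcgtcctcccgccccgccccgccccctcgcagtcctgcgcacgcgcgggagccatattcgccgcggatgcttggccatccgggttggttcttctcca
The search covered both strands for the core of the antioxidant response element (TGACNNNGC), which the Nfe2l1 product binds, the CCAAT box (CCAAT), bound by NF-Y, and the core of ETS factor sites (CCGGAA), with no overlap among the matches in these windows. Psmb3 held CCAAT boxes that begin 85 and 43 bases before the start. Psme4 held ETS cores at 53 and 31 bases, and Psmd11 held 1 on the opposite strand at 10 bases. Psmc4 and Psma4 held none of these letters. Of 39 members with a window, 18 (46.2%) held the ETS core, against 12.03% of all 32851 windows, 14 (35.9%) held the CCAAT box, against 33.85%, and 5 (12.8%) held the antioxidant core, against 10.2%. These shares are not of like units. A member counted once if any of its windows matched, while the background counts single windows and is not limited to genes tested here. Among the 7 called members the ETS core was in 2, the CCAAT box in 1 and the antioxidant core in 0. A match is a run of letters and not a measured binding site.

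The clearest difference was that of 1 gene in the ring of 6 ATPases at the base of the regulatory particle. In this ring 1 gene was called lower and 0 higher, where 9.09% of all genes tested were called. Psmc4, which encodes the ATPase also called Rpt3 (chromosome 7, 28041707 to 28050101, minus strand, GRCm38), had 54.1, 53.9 and 58.7 CPM in BALB/c kidneys, against 94.3, 89.3 and 91.5 CPM in B6 kidneys. The highest BALB/c value lay well below the lowest B6 value, and the libraries of each strain were close together. Its promoter window, printed above, holds none of the motifs searched. The mean was 55.6 ± 2.72 CPM in BALB/c and 91.7 ± 2.52 CPM in B6 (SD, n = 3 each), a ratio of 0.606 and a log2 fold of -0.71 ± 0.12 SE (adjusted p by limma = 1.96e-04). The other ATPases, which share the ring with it, were not called. Psmc3, the most abundant of them, had 254, 277 and 241 CPM in BALB/c and 245, 249.7 and 279.9 CPM in B6, with a log2 fold of -0.006 (95% interval -0.20 to 0.19, and so for the ranges in parentheses below). Its exons overlap those of Slc39a13. Psmc6 had the highest fold of the ring, 0.05 (-0.19 to 0.29), and Psmc5 had -0.008 (-0.27 to 0.26) at a level like that of Psmc4 in BALB/c. Psmc1 had -0.09 (-0.31 to 0.14), and Psmc2 had -0.24 (limma adjusted p = 0.223). Summed over the 6 genes the ring had 684, 725 and 641 CPM in BALB/c and 728, 731 and 772 CPM in B6, so the strains came close without overlapping. The mean sums were 683 CPM in BALB/c and 744 CPM in B6, of which Psmc4 alone gave 55.6 and 91.7 CPM.

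The rest of the regulatory particle is made of subunits without ATPase activity, which hold ubiquitin receptors, the scaffold and the enzyme that removes ubiquitin. Of these 11 genes 2 were lower in BALB/c, Psmd11 and Psmd8, and 0 higher, where 9.09% of all genes tested were called. Psmd11, the lid subunit Rpn6, which bridges the lid and the core (chromosome 11, 80428615 to 80473248, plus strand), had 83.3, 82.9 and 80.1 CPM in BALB/c, against 126, 132 and 122 CPM in B6. The strains were far apart relative to the spread within each. Its mean was 82.1 ± 1.78 CPM in BALB/c and 127 ± 5.10 CPM in B6 (SD, n = 3 each), a ratio of 0.648 and a log2 fold of -0.62 ± 0.11 SE (adjusted p by limma = 3.36e-04). Psmd8, the lid subunit Rpn12 (chromosome 7, 29174188 to 29180701, minus strand), had 195, 189.5 and 192 CPM in BALB/c and 247, 228 and 237 CPM in B6, with no overlap. Its log2 fold was -0.30 ± 0.09 SE (adjusted p by limma = 0.0404), a ratio of 0.809. Leaving out B6 replicate 1 or 3 or any 1 BALB/c library ended this call (limma adjusted p up to 0.157).

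The remaining 9 non-ATPase subunits had folds between -0.24 and 0.17 and were not called. Psmd3, a lid subunit and the most abundant gene of the regulatory particle, had 415, 403 and 416 CPM in BALB/c and 365, 362 and 371 CPM in B6, which did not overlap, and a log2 fold of 0.17 (limma adjusted p = 0.269). Exons of Psmd3 and Gm12356 overlap. Psmd14, the enzyme that cuts ubiquitin chains from substrates, had -0.04 (-0.31 to 0.22), and its inactive partner Psmd7 had 0.07 (-0.14 to 0.28). The ubiquitin receptor Psmd4 had 241, 235 and 244 CPM in BALB/c and 227, 231 and 258 CPM in B6, a log2 fold of 0.008 (-0.18 to 0.20). The scaffold subunits Psmd1 and Psmd2 had -0.20 (limma adjusted p = 0.238) and -0.07 (0.761). The lid subunits Psmd12, Psmd13 and Psmd6 had -0.24, -0.13 and 0.04, and BALB/c lay below B6 without overlap for Psmd1, Psmd12 and Psmd13. All 11 genes summed to 1752, 1703 and 1735 CPM in BALB/c and 1850.3, 1797 and 1805 CPM in B6. The mean sums were 1730 CPM in BALB/c and 1817 CPM in B6. Of the 2 called genes in this sum, Psmd11 had means of 82.1 CPM in BALB/c and 127 CPM in B6, and Psmd8 had 192 and 237 CPM. The lower sum does not stand for each gene, since 4 of the 11 folds were above 0 and 7 below.

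**Figure D2:**
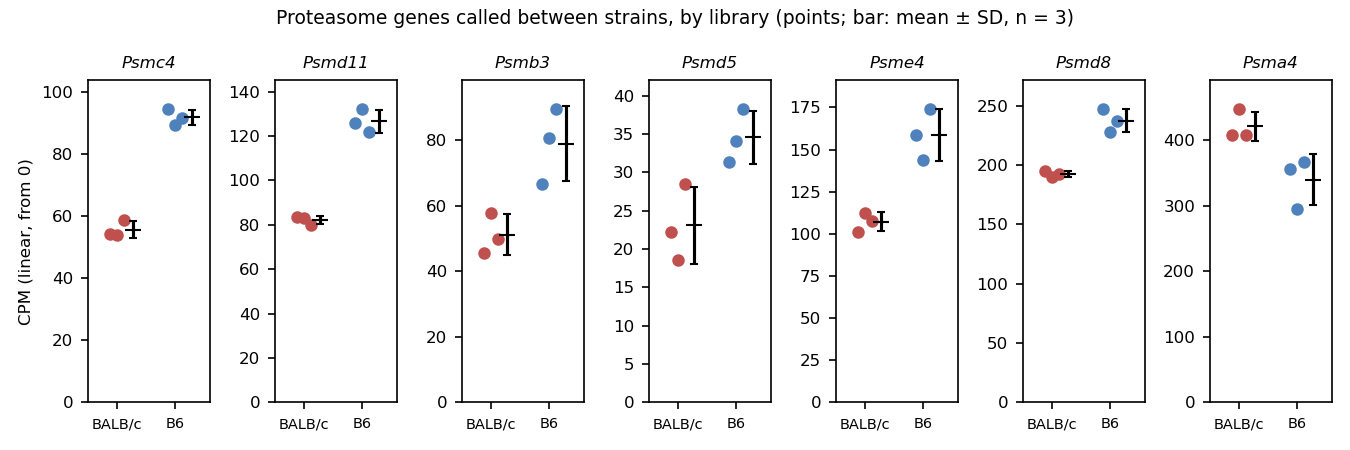
Level in CPM (linear y axis from 0) of the 7 called members in each library, BALB/c in red and B6 in blue, with mean ± SD (n = 3) beside the points. BALB/c lies below B6 without overlap in 6 panels and above it in that of Psma4.

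In the core, 1 of 7 tested beta genes was called lower and 1 of 7 tested alpha genes higher. Of all genes tested 9.09% were called, 4.93% lower and 4.17% higher. Psmb3, a beta subunit without cutting activity (chromosome 11, 97703399 to 97713500, plus strand), had 45.5, 57.9 and 49.9 CPM in BALB/c and 66.7, 80.5 and 89.4 CPM in B6. The groups did not overlap, although both were more scattered than those of Psmc4. Its mean was 51.1 ± 6.28 CPM in BALB/c and 78.9 ± 11.4 CPM in B6 (SD, n = 3 each), a ratio of 0.648 and a log2 fold of -0.61 ± 0.14 SE (adjusted p by limma = 0.00448). Of the 50-base words in the last 300 bases of its transcript, 51.0% also occur in transcripts of 5 other annotated loci, so its count may include or lack reads of those copies. The call of Psmb3 ended with a variance prior that ignores expression level (limma adjusted p = 0.106).

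The cutting subunits did not pass the test. Psmb5, which carries the chymotrypsin-like site, had 150.3, 142 and 134 CPM in BALB/c and 149, 161 and 164 CPM in B6, overlapping by a narrow margin, with a log2 fold of -0.15 (-0.36 to 0.05). Its 3′ end shares 51.0% of its words with another locus, and its exons overlap Mir686. Psmb6, with the caspase-like site, had 154, 142 and 148 CPM in BALB/c and 146, 150.5 and 156 CPM in B6, a log2 fold of -0.03 (-0.23 to 0.18). Psmb7, with the trypsin-like site, had 201, 211 and 205 CPM in BALB/c and 196, 179.8 and 241 CPM in B6, a log2 fold of 0.012 (-0.21 to 0.23). Exons of Psmb7 overlap those of Nek6. For these 3 genes the intervals exclude a change of 0.5 on the log2 scale in either direction. The structural beta genes Psmb1 and Psmb4 had 0.15 (-0.04 to 0.35) and 0.17 (-0.02 to 0.37). Psmb1, the most abundant beta gene, had 263, 243 and 251 CPM in BALB/c and 216, 217 and 247 CPM in B6, and shares 9.8% of its 3′ end words with 1 other locus. Psmb4, the tested beta gene with the highest fold, had 202, 201 and 206 CPM in BALB/c, all above 184, 179 and 176 CPM in B6. Psmb2 was the lowest tested beta gene, with 20.3, 17.1 and 14.4 CPM in BALB/c, all below 22.1, 27.1 and 21.6 CPM in B6. Its log2 fold was -0.43 ± 0.20 SE (adjusted p by limma = 0.193), not called.

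Psma4, an alpha ring subunit (chromosome 9, 54950790 to 54958030, plus strand), was the one member called higher and had the highest mean of all members in BALB/c, within its spread of that of Psmd3. It had 409, 448 and 408 CPM in BALB/c and 356, 296 and 368 CPM in B6, with no overlap. The mean was 421 ± 22.6 CPM in BALB/c and 339.9 ± 38.7 CPM in B6 (SD, n = 3 each), a ratio of 1.24 and a log2 fold of 0.31 ± 0.10 SE (adjusted p by limma = 0.0432). Its exons overlap those of AY074887. With B6 replicate 1 or 2 or any 1 BALB/c library removed it was no longer called (limma adjusted p up to 0.186). The other 6 tested alpha genes were not called. Psma5 had the lowest fold, with 24.7, 21.6 and 25.9 CPM in BALB/c, all below 33.6, 30.2 and 28.1 CPM in B6, and a log2 fold of -0.34 ± 0.17 SE (adjusted p by limma = 0.246). Its 3′ end shares 56.9% of its words with 2 other loci, and its exons overlap those of 1700010K24Rik. Psma1 also had BALB/c values below B6 without overlap (-0.25, limma adjusted p = 0.247), and Psma2 had them above (0.14, 0.425). Psma7, Psma6 and Psma3 had 0.18, 0.12 and -0.03, with overlapping groups. The alpha genes summed to 1259, 1377 and 1311 CPM in BALB/c and 1212, 1073 and 1256 CPM in B6, and the beta genes to 1037, 1014 and 1009 CPM in BALB/c and 980.4, 996 and 1095 CPM in B6. The highest alpha sum in B6 nearly reached the lowest in BALB/c, and the beta sums overlapped.

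The tissue-specific core genes were barely detected. Psmb11, the beta subunit of the thymus proteasome, had 18, 10 and 6 reads in BALB/c and 5, 5 and 4 reads in B6, or 1.74, 1.18 and 0.601 CPM in BALB/c and 0.551, 0.504 and 0.449 CPM in B6. Psma8, an alpha subunit of testis, had 0, 0 and 8 reads in BALB/c and 2, 0 and 3 reads in B6. Both were below the level at which genes were tested.

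**Figure D3:**
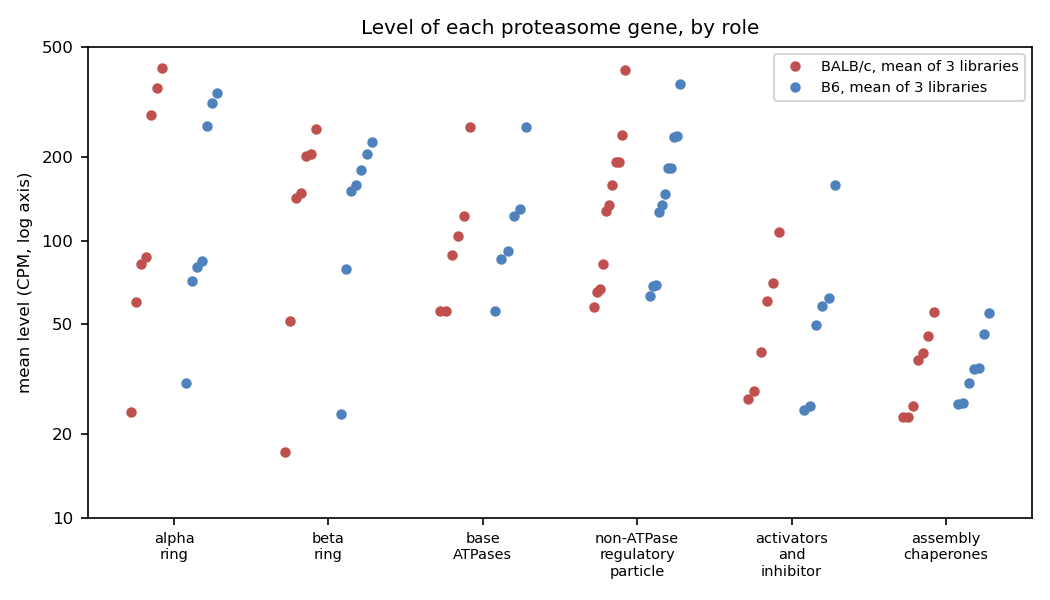
Mean level of each tested member except Psmc3ip (CPM, log y axis) in BALB/c (red) and B6 (blue) by role. Each gene has 1 point per strain, ordered by level within each strain and role. Core genes span 17.3 (Psmb2) to 421 CPM (Psma4) in BALB/c and 23.6 to 339.9 CPM in B6, and assembly chaperones stay under 60 CPM in both.

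Although subunits of a ring are present in equal number in the assembled particle, their 3′ end read levels differed widely within each class. Among the tested alpha ring genes the means ran from 24.0 CPM (Psma5) to 421 CPM (Psma4) in BALB/c and from 30.7 to 339.9 CPM in B6. In the ATPase ring they ran from 55.5 CPM (Psmc5) to 257 CPM (Psmc3) in BALB/c and from 55.8 to 258 CPM, of the same genes, in B6. In BALB/c the means of Psmc4 and Psmc5 lay within their spread of each other, while in B6 Psmc4 was above Psmc5 (91.7 ± 2.52 and 55.8 ± 3.48 CPM, SD, n = 3). Differences in level between genes also depend on how well each 3′ end is captured and mapped, which was not measured.

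Among the activators and the inhibitor, 1 of 6 genes was lower in BALB/c and 0 higher, where 9.09% of all genes tested were called. Psme4, the nuclear activator PA200 (chromosome 11, 30771726 to 30880361, plus strand), had 101, 113 and 108 CPM in BALB/c and 158, 144 and 174 CPM in B6. It was the most abundant gene of this class in both strains, and the groups did not overlap. Its mean was 107 ± 5.74 CPM in BALB/c and 159 ± 15.2 CPM in B6 (SD, n = 3 each), a ratio of 0.676 and a log2 fold of -0.56 ± 0.11 SE (adjusted p by limma = 0.00102), a call that ended with a variance prior that ignores level (0.0764). Psme3, which encodes the gamma subunit of the other nuclear activator, had 38.2, 41.0 and 39.7 CPM in BALB/c, all below 48.3, 51.1 and 48.9 CPM in B6. Its log2 fold of -0.31 ± 0.13 SE (adjusted p by limma = 0.173) was not called.

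The alpha and beta subunits of the interferon-induced activator PA28 did not pass the test. Psme1 had 64.7, 55.2 and 61.0 CPM in BALB/c and 54.1, 66.2 and 53.8 CPM in B6, a log2 fold of 0.06 (-0.21 to 0.33). Its exons overlap those of Emc9, and 23.5% of its 3′ end words are shared. Psme2 had 28.3, 28.9 and 23.2 CPM in BALB/c and 22.6, 25.7 and 25.0 CPM in B6, a log2 fold of 0.12 (-0.23 to 0.48). Psme2b, its copy on chromosome 11, had 72.7, 75.6 and 62.5 CPM in BALB/c and 63.5, 69.4 and 53.4 CPM in B6, a log2 fold of 0.18 (-0.09 to 0.45). Psme2 and Psme2b share 68.6% and 66.7% of their 3′ end words with each other, so their reads cannot be assigned to 1 of them with certainty. Psmf1, which encodes the inhibitor PI31, had 31.6, 26.6 and 27.8 CPM in BALB/c and 27.3, 27.1 and 21.5 CPM in B6, a log2 fold of 0.18 (-0.18 to 0.53). Summed over the 6 genes this class had 336, 339.9 and 322 CPM in BALB/c and 374, 383 and 376 CPM in B6, without overlap. The sum does not describe each gene, since 4 folds were above 0 and 2 below, with a median of 0.09. Psme4 had both the highest level and the lowest fold of the class.

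Of 7 assembly chaperone genes 1 was lower and 0 higher, where 9.09% of all genes tested were called. Psmd5, a chaperone of the ATPase ring (chromosome 2, 34849734 to 34874968, minus strand), had 22.3, 18.5 and 28.5 CPM in BALB/c and 31.4, 34.1 and 38.2 CPM in B6. The groups did not overlap, but the gap between them was narrow relative to the spread in BALB/c. The mean was 23.1 ± 5.02 CPM in BALB/c and 34.6 ± 3.45 CPM in B6 (SD, n = 3 each), a log2 fold of -0.58 ± 0.18 SE (adjusted p by limma = 0.0433). Leaving out any B6 library or BALB/c replicate 1 or 2 ended the call (limma adjusted p up to 0.201). The other chaperones of the ATPase ring, Psmd9 and Psmd10, had 0.19 (-0.13 to 0.52) and -0.03 (-0.31 to 0.25). Of the chaperones that pair the alpha subunits, Psmg4 had 42.8, 32.4 and 36.0 CPM in BALB/c and 31.4, 24.5 and 36.2 CPM in B6, a log2 fold of 0.27 (limma adjusted p = 0.386). Psmg3, the most abundant chaperone gene, had 62.8, 58.7 and 43.9 CPM in BALB/c and 53.8, 57.6 and 53.4 CPM in B6, with a log2 fold of -0.011 (-0.30 to 0.28). Its exons overlap those of Gm26938. Psmg1 and Psmg2 had -0.05 and -0.16. Psmc3ip, whose product acts in meiotic recombination and which matches the rule by symbol alone, had 10.2, 9.43 and 10.1 CPM in BALB/c and 9.03, 11.4 and 11.0 CPM in B6, a log2 fold of -0.07 (-0.57 to 0.44). Exons of Psmc3ip and Mlx overlap.

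**Figure D4:**
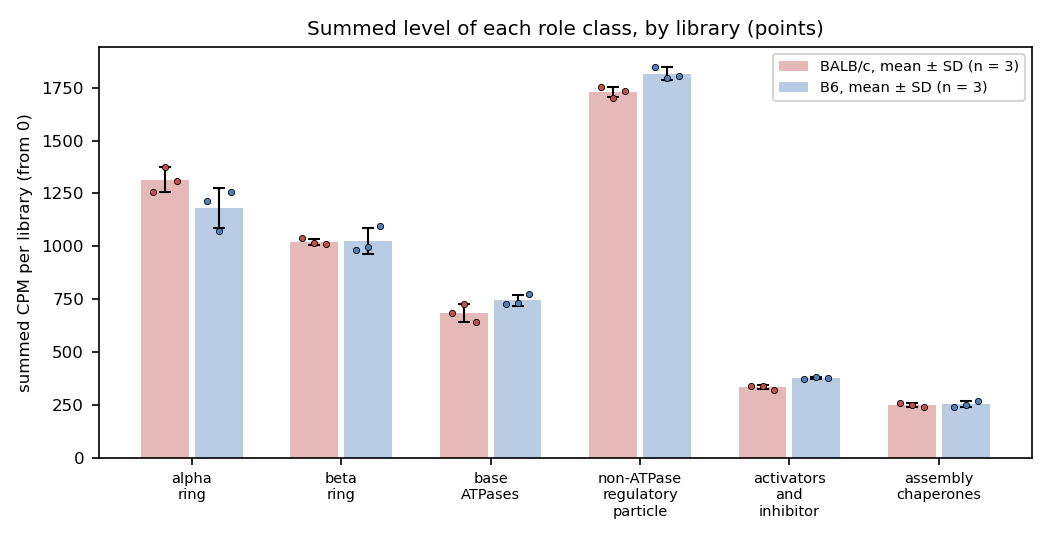
Summed CPM of each role class per library (points) with mean ± SD (bars, n = 3) in BALB/c (red) and B6 (blue), y axis from 0. The sums of the activators, of the ATPases and of the non-ATPase subunits sit below B6 in every BALB/c library. Those of the alpha ring sit above B6. Folds of both signs enter each of these sums. Above 0 were 4 of the 6 activator and inhibitor genes and 4 of the 11 non-ATPase genes. The beta ring and chaperone sums overlap.

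Other genes work with the proteasome under names outside the Psm series. Of 11 partner genes tested, among them the assembly factor Pomp, the ubiquitin receptor Adrm1, the particle subunit Shfm1 and the ubiquitin-removing enzymes Usp14 and Uchl5, 1 was lower and 0 higher, a share near the 9.09% called among all genes tested. It was Akirin2, known in human cells as a factor of nuclear import of proteasomes, with 41.2, 43.0 and 52.2 CPM in BALB/c and 66.8, 61.5 and 57.2 CPM in B6. Its log2 fold was -0.44 ± 0.14 SE (adjusted p by limma = 0.0443), and the call was lost without either of replicates 1 and 2 of BALB/c or of B6 (limma adjusted p up to 0.189). Pomp, the most abundant partner, had 0.05 (-0.14 to 0.24). The median fold of the partners was -0.06.

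Of 8 genes that control proteasome transcription, 1 was lower and 0 higher, where 9.09% of all genes tested were called. Nfe2l1, the factor that raises subunit genes when proteasome activity is short (chromosome 11, 96817414 to 96829968), had 106, 105 and 119 CPM in BALB/c and 154, 163 and 151 CPM in B6, with no overlap. Its mean was 110.2 ± 7.89 CPM in BALB/c and 156 ± 6.29 CPM in B6 (SD, n = 3 each), a log2 fold of -0.50 ± 0.10 SE (adjusted p by limma = 0.00235). It kept its call without any 1 library (limma adjusted p up to 0.0189) and lost it with a variance prior that ignores level (0.0863). Ddi2 and Ngly1, whose products process that factor, had -0.14 (-0.63 to 0.35) and -0.03 (-0.45 to 0.39). The related factor gene Nfe2l2 had -0.10 (-0.31 to 0.11).

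Genes of ubiquitin supply and substrate delivery are given by named examples. Rps27a, which encodes ubiquitin fused to a ribosomal protein, had 362, 388 and 349.9 CPM in BALB/c and 307, 258 and 295 CPM in B6, a log2 fold of 0.36 ± 0.09 SE (adjusted p by limma = 0.0165). Its exons overlap those of Clhc1, 86.3% of its 3′ end words are shared, and the call was lost without BALB/c replicate 1, BALB/c replicate 2 or B6 replicate 2 (limma adjusted p up to 0.0988). The polyubiquitin gene Ubb was listed at 0.291, 0.59 and 0.401 CPM in BALB/c and 0.11, 0.302 and 0 CPM in B6 and was not tested. Its 3′ end shares 86.3% of its words with other loci. The unfolding ATPase gene Vcp had -0.18 (limma adjusted p = 0.264).

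The immunoproteasome genes, left out of the members, had folds above 0 and were not called. Psmb9 had 7.71 ± 1.17 CPM in BALB/c (SD, n = 3), each library above those of B6 with 3.67 ± 0.965 CPM in B6, and a log2 fold of 0.91 ± 0.31 SE (adjusted p by limma = 0.0656). Exons of Psmb9 overlap those of Tap1, and it lies in the MHC, where the strains carry different haplotypes. Psmb8 and Psmb10 had 0.27 and 0.18. Of 10 interferon response genes, limma called 0, and 2 had an unadjusted p under 0.05. The smallest p was that of Gbp2, with 9.68, 3.89 and 3.51 CPM in BALB/c and 8.69, 12.9 and 9.20 CPM in B6, a log2 fold of -0.85 ± 0.32 SE (adjusted p by limma = 0.112), and it was called lower only without BALB/c replicate 1 (0.0188). Exons of Gbp2 and Mir6381 overlap.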

How the data were processed

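Per the labels' protocols, Trizol was used for extraction and a Lexogen QuantSeq kit for the libraries. Bowtie2, bedtools and mm10 are named in the submitters' processing notes; the sources used here give no versions, annotation, strand setting or rule for reads with several alignments. The authors deposited log2 values, 1 per gene symbol and library. Their sums after removing the log show them to be log2(CPM + 1) with a further factor per library, and 100% of values up to 20 reads were whole multiples of 1 read within 0.1 read, from which read numbers were recovered (1 read was 0.0968 to 0.118 CPM).

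A linear model was fitted with limma 3.58.1 (R 4.3.3) to the log2 values as deposited for the 13317 genes with a value of at least 1 in at least 3 libraries, with strain as the sole term and a variance prior that follows level. The prior carries 18.4 degrees of freedom beside 4 residual ones. Intervals are 95% and not adjusted. Same-strain libraries were further apart than sampling noise allows (chi-square over degrees of freedom, 7.75 to 16.3), so none was a repeat deposit. Coordinates, exon overlaps and shared 50-base words in the last 300 bases of a transcript came from GENCODE M21 on GRCm38, and promoter windows from RefSeq on GRCm38.p6. The members and the lists of related genes were chosen with earlier results of these data known. Named are all called members, the highest level and the highest and lowest fold of each class, a fixed set of regulators and cutting subunits, and called genes of the related lists or, with none called, the gene with the smallest p; the remaining members are given by their folds. Some genes of the lists of related genes and markers are not reported here.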

Additional observations from a re-analysis of the deposited data

How the results depend on the processing

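The counts depended on the variance prior and on single libraries. With no trend in the prior 493 genes and 2 members (Psmc4 and Psmd11) were called, against 1211 and 7; the cause was not tested. Leaving out 1 library gave 797 to 1138 genes and 4 to 5 members. Without genes whose exons overlap or whose 3′ ends are shared, where 7390 genes and 28 members were tested, 686 genes and 5 members were called. Psmc4 and Psmd11 kept their calls under each of 16 alternatives, Psmb3 and Psme4 under each in which they were tested except the prior without trend, and Psmb3 was not tested among genes with unshared 3′ ends. Total scaling ended the calls of Psmd5 (limma adjusted p = 0.0583) and Psmd8 (0.0635) and moved the summed non-ATPase subunits to -0.0481 on the log2 scale, against -0.0713 in the deposited scaling. Folds near 0 changed sign without a call. With total scaling Psmc3 had 0.0181 and Psmg3 0.0127, with upper quartile scaling Psmc3 had 0.0038, and leaving out 1 library gave -0.0558 to 0.0022 for Psmb6, -0.0782 to 0.131 for Psmb7, -0.0595 to 0.0538 for Psmc3, -0.021 to 0.134 for Psmc6 and -0.111 to 0.143 for Psmg3. The median fold of the members stayed between -0.0595 and -0.0033 in these leave-outs.

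Libraries of equal replicate number showed no sign of pairing, with correlations of deviations from strain means of 0.0115, -0.057 and -0.0844. Not every library correlated best with its own number. With 3 libraries per strain these values cannot show that there was no pairing. A fit with the replicate number as a block called 977 genes and 4 members (Psmb3, Psmc4, Psmd11 and Psme4). Depth was ample for the tested members, which had 80 to 4290 reads per library, whereas Psma8 and Psmb11 had at most 18. With 3 libraries per strain, many intervals of members that were not called still hold changes of 0.25 on the log2 scale.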
